A study of Mus musculus with 10 samples.

Results

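A set of 10 genes of the transforming growth factor beta (TGF-beta) pathway were followed across cultures of mouse T helper cells, and they are the receptor chains, the signal-carrying Smads, the feedback inhibitors and the ligand itself. The genes were Pmepa1, Smad7, Smad3, Smad2, Skil, Ski, Ldlrad4, Tgfbr1, Tgfbr2 and Tgfb1, all 10 of which were found among the 22180 genes measured. Each had 1 probe set (a group of array probes for 1 transcript) with a single gene symbol. The study set 3 populations of CD4-positive spleen lymphocytes from wild-type female BALB/c mice, aged 10 to 14 weeks, side by side on 10 arrays: Th0 (n = 3), Th2 (n = 3) and Th17 (n = 4). Every culture was stimulated through CD3 (4 µg/ml of antibody) and through CD28 (30 ng/ml of antibody), and medium was renewed at 72 h. Th17 cultures also received TGF-beta (5 ng/ml), IL-6 (20 ng/ml), IL-23 (10 ng/ml) and an antibody against interferon gamma (10 µg/ml). Th2 cultures received IL-4 (100 ng/ml) and the same antibody, and Th0 cultures, the control, received none of these. TGF-beta was thus given to Th17 cultures alone, always with IL-6 and IL-23, so the shares of these 3 cytokines in any difference cannot be told apart. Against Th0, the antibody to interferon gamma adds to them, and against Th2, the IL-4 that Th2 cultures alone received.

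TGF-beta is released as a latent complex and, once freed, is bound by the receptor kinase Tgfbr2, which then activates its partner Tgfbr1. Tgfbr1 phosphorylates Smad2 and Smad3, which join Smad4 and regulate genes in the nucleus, among them genes for inhibitors that turn the signal down again. In mouse CD4-positive cells TGF-beta is known to favour regulatory T cells when given alone and Th17 cells when given with IL-6.

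Arrays were not uniform within groups. The first principal component over all genes held 35.8% of the variance, and Th2 replicates 2 and 3 and Th17 replicate 4 lay at 37.4 to 55.7 on it against -0.7 or less for the other 7 arrays. Those 3 arrays also had the lowest mean level of 6 helper T cell markers (8.65 to 8.81, against 9.18 to 9.71). Basophil and mast cell markers (5 genes) were highest on Th0 replicate 1 and Th17 replicates 2 and 3, at means of 6.87 to 7.92, and at 4.70 or less elsewhere. Of these, Kit was at 4.78 to 5.07 on all 4 Th17 arrays. Myeloid markers (6 genes) had a mean of 4.74 on Th17 replicate 1 and 3.37 or less elsewhere. On that array S100a8, S100a9 and Lyz2 were at 7.16, 6.52 and 5.43, and Csf1r, Itgam and Cd14 at 3.33, 3.22 and 2.76. B cell markers (4 genes) were also highest there, at 5.52, with Th0 replicate 2 next at 5.32. The Th17 label was borne out by Il17a, Il17f and Il23r, whose mean was 8.33 to 9.14 on Th17 arrays and 3.92 to 6.04 on the others. Th2 markers (Gata3, Il4, Il5, Il13) had means of 7.99 to 8.50 on Th2 arrays and 7.40 to 7.98 on Th0 arrays, so those groups lay next to each other. In the group means 3 of these 4 genes were higher in Th2 than in Th0, while Gata3 was lower (7.52 against 7.75). In such mixed cell samples, fewer cells of a type and less RNA per cell cannot be told apart.

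Promoter windows were at hand for 5 of the 10 genes (RefSeq, GRCm38.p6). The pair of receptor chains is shown because one of them, Tgfbr1, was higher on every Th17 than on every Th0 array and the other was not. The 250 bases before each start site are given 5′ to 3′, with capitals marking matches on either strand to CAGAC and to the GC-rich element GGCGC, short sequences known to be bound by Smad proteins.
Tgfbr1, first of its 2 windows (chr4:47352972-47353221, plus strand): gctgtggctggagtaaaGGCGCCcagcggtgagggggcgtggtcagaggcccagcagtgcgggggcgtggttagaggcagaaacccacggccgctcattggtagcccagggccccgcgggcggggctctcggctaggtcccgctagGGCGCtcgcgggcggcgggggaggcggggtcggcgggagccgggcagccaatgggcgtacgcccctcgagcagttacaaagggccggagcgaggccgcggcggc
Tgfbr2 (chr9:116175364-116175613, minus strand): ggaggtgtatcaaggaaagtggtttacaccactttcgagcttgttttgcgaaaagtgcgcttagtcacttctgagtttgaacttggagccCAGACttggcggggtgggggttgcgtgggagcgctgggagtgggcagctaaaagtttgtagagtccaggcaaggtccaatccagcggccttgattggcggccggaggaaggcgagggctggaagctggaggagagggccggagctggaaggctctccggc
This first Tgfbr1 window held 3 matches to GGCGC on either strand, of which the first pair overlap, and none to CAGAC. The second Tgfbr1 window, at chr4:47385966-47386215 and not printed, held 1 match to CAGAC, 203 bases before its start, and none to GGCGC. Tgfbr2 had 1 match to CAGAC, which begins 160 bases before the start, and none to GGCGC. Of all 32851 windows of this length, 42.2% hold CAGAC and 32% hold GGCGC, so each match is common. The palindrome GTCTAGAC, in 0.167% of windows, was in none of those found for these genes.

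Among the feedback inhibitors, Pmepa1 rose in Th17 cultures and 3 more (Ldlrad4, Smad7, Skil) lay higher there than on every Th0 array without passing the test. Between Th17 and Th0 the level of the ligand gene and of the Smads that carry the signal differed less. Against Th2 this did not hold for Smad3, at -0.67 on the log2 scale beside 0.56 for Skil. In Th17 against Th0, Pmepa1 was the 1 of 10 genes called (limma, adjusted p under 0.05 over all genes), where 0.104% of all genes were. On 5 of the 10 genes (Pmepa1, Ldlrad4, Smad7, Skil, Tgfbr1) every Th17 array was above every Th0 array, as was so for 3.22% of all genes. The same 5 had an unadjusted p under 0.05 with higher values, against 2.5% of all genes. The median difference over the 10 genes was 0.75 on the log2 scale, with 8 of them above 0, while that of all genes was -0.02, with 46.8% above 0. The genes were chosen with earlier results of these data known, so these counts are a description.

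**Figure D1:**
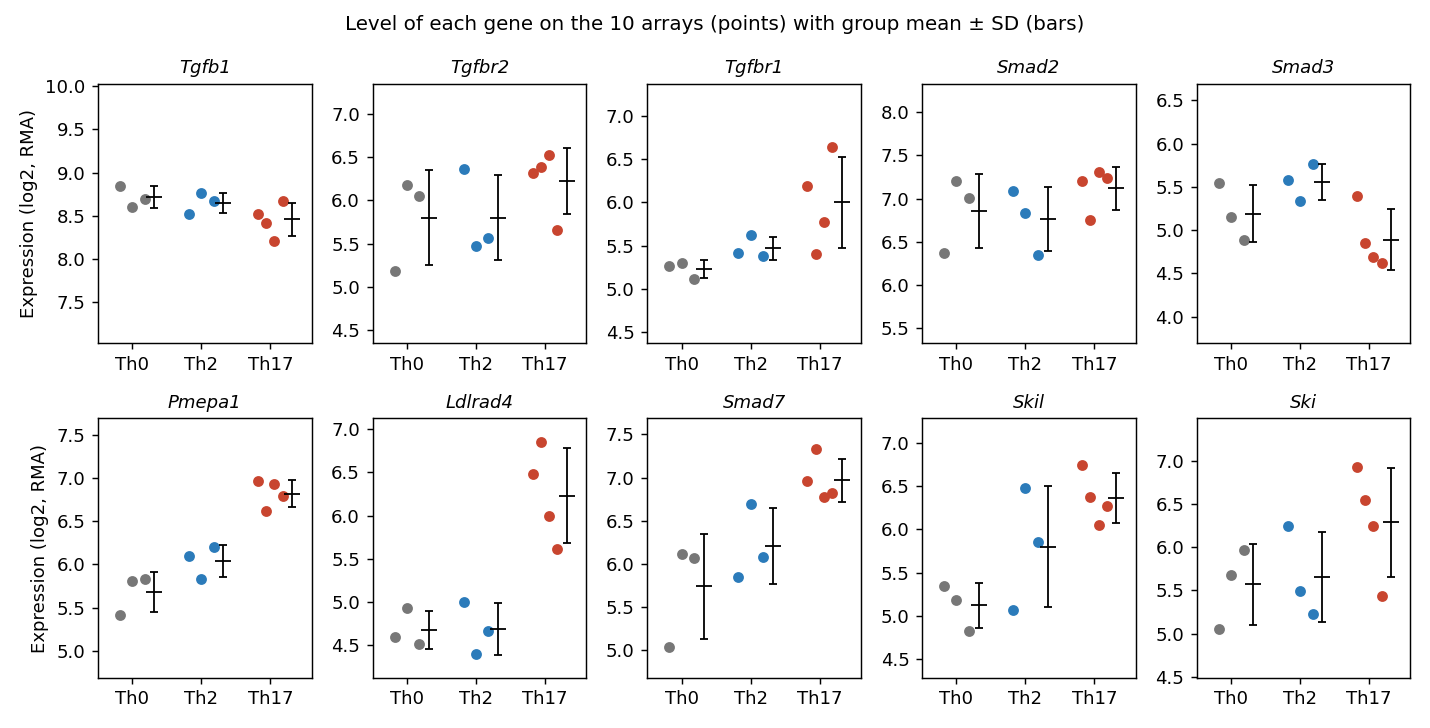
Log2 expression (y axis) of the ligand gene, receptors and Smads (top row) and the feedback genes (bottom row) on each of the 10 arrays, by group (x axis). Points are arrays, bars are the group mean and SD, and all panels span the same number of log2 units so that spreads can be compared; Pmepa1, Ldlrad4 and Smad7 are the panels in which all 4 Th17 arrays lie above the 6 arrays without TGF-beta.

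Pmepa1 encodes a membrane protein of the endosome that binds Smad2 and Smad3 and keeps them from the receptor. Its level was 5.41, 5.81 and 5.83 on Th0 replicates 1 to 3, 6.10, 5.83 and 6.20 on Th2 replicates 1 to 3, and 6.97, 6.62, 6.93 and 6.79 on Th17 replicates 1 to 4. No Th17 array reached down to the highest of the others, and the Th2 arrays stood at or just above the top of the Th0 arrays. Pmepa1 rose by 1.14 ± 0.16 (SE) on the log2 scale, or 2.21-fold, from Th0 to Th17 (limma, adjusted p = 0.0381). Between Th17 and Th2 its difference was 0.79 ± 0.16 (limma, adjusted p = 0.186), and between Th2 and Th0 0.36 ± 0.17 (limma, adjusted p = 0.795). The order of the groups was Th17, Th2, Th0, and neither step between neighbours passed the test. The size of the rise was steady but its call was not: with Th2 replicate 1 left out the adjusted p was 0.0343, and with any of the other 9 arrays left out it was 0.0586 to 0.183, at differences of 1.01 to 1.21. Without the 3 arrays apart on the first component the difference was 1.15 (limma, adjusted p = 0.0512), and without the 3 arrays highest in basophil markers 1.06 (0.704, with 7 arrays left).

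Ldlrad4, a relative of Pmepa1 that also sequesters Smad2 and Smad3, had the widest range of the 10 genes, 2.45 log2 units. Th0 arrays were at 4.60, 4.93 and 4.52 and Th2 arrays at 5.00, 4.40 and 4.67. Th17 arrays were at 6.48, 6.85, 5.99 and 5.61. Th0 and Th2 arrays intermingled, and the lowest Th17 array, replicate 4, was still above the highest of them. The difference was 1.55 ± 0.27 (SE), or 2.93-fold, against Th0 (limma, adjusted p = 0.0838) and 1.54 ± 0.27 against Th2 (limma, adjusted p = 0.1). It therefore missed the threshold in each comparison. Between Th2 and Th0 the difference was 0.01, with a 95% interval for the single gene of -0.64 to 0.65. Without Th17 replicate 4 it was 1.76 against Th0 and passed (limma, adjusted p = 0.0453), and with any of the other 9 arrays left out it did not (0.0567 to 0.385).

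Smad7 encodes the inhibitory Smad, which occupies Tgfbr1 and brings ubiquitin ligases to it. Its level was 5.04, 6.12 and 6.07 on the Th0 arrays, 5.85, 6.70 and 6.08 on the Th2 arrays, and 6.96, 7.33, 6.77 and 6.82 on the Th17 arrays. The Th17 arrays were the highest 4, with Th2 replicate 2 just below the lowest of them. Th0 replicate 1 was the lowest of all. Smad7 differed by 1.23 ± 0.29 (SE) between Th17 and Th0 (limma, adjusted p = 0.341) and by 0.76 ± 0.29 between Th17 and Th2 (limma, adjusted p = 0.686). Without Th0 replicate 1 the first of these was 0.88.

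Skil and Ski encode related corepressors that bind Smad complexes and silence their target genes, and Skil is itself a known target of the signal. Skil stood at 5.34, 5.18 and 4.83 on Th0 arrays and at 6.74, 6.37, 6.05 and 6.27 on Th17 arrays. On the Th2 arrays it was at 5.07, 6.48 and 5.85, so Th2 replicate 1 looked like Th0 and Th2 replicate 2 lay among the Th17 arrays. Its difference was 1.24 ± 0.29 (SE), or 2.37-fold, between Th17 and Th0 (limma, adjusted p = 0.35) and 0.56 ± 0.29 between Th17 and Th2 (limma, adjusted p = 0.871). Th2 replicates 2 and 3, the Th2 arrays high in Skil, are among the 3 apart on the first component, and the part of that in the Th2 level was not tested. Without those 3 arrays, Skil in the lone Th2 array left differed from Th17 by 1.31 and from Th0 by -0.04.

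Ski varied within every group, at 5.05, 5.68 and 5.97 in Th0, 6.24, 5.49 and 5.23 in Th2, and 6.93, 6.54, 6.24 and 5.44 in Th17. The 3 highest values were Th17 arrays (the third of them level with Th2 replicate 1), but Th17 replicate 4 lay below 4 of the 6 arrays of the other groups. The difference of 0.72 ± 0.36 (SE) from Th0 did not pass (limma, adjusted p = 0.999).

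Of the receptor chains, Tgfbr1 was at 5.27, 5.30 and 5.11 on Th0 arrays, at 5.41, 5.62 and 5.38 on Th2 arrays and at 6.19, 5.40, 5.77 and 6.64 on Th17 arrays. Every Th17 array was above every Th0 array, but Th17 replicate 2 was below 2 of the 3 Th2 arrays. Tgfbr1 differed by 0.78 ± 0.25 (SE) between Th17 and Th0 (limma, adjusted p = 0.711). It was highest on Th17 replicate 4, the Th17 array apart on the first component, and without that array the difference was 0.56.

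Tgfbr2, the chain that binds the ligand, was at 5.18, 6.18 and 6.05 in Th0, at 6.36, 5.47 and 5.56 in Th2, and at 6.32, 6.39, 6.52 and 5.66 in Th17. Its groups overlapped throughout, and the difference of Th17 from Th0 was 0.42 ± 0.31 (SE, 95% interval -0.26 to 1.09, limma, adjusted p = 0.999). Tgfbr2 and Ski followed each other across arrays. After each gene was centred on its own mean, their root mean square difference over the 10 arrays was 0.29 log2 units, the smallest among the 45 pairs of these genes, and Tgfbr2 with Smad2 came next at 0.33. On this measure a gene with a flat profile lay at 0.57 from Ski, 0.44 from Tgfbr2 and 0.33 from Smad2. Smad2 was thus as near to a flat profile as to Tgfbr2. Over all named genes, the nearest lay at 0.23 from Ski and 0.12 from Tgfbr2, nearer than these 2 to each other. Ski and Tgfbr2 shared their 4 lowest arrays, Th0 replicate 1, Th2 replicates 2 and 3 and Th17 replicate 4. Those are the 3 arrays apart on the first component and the array highest in basophil and mast cell markers (mean 7.92), and their part in these levels was not tested.

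**Figure D2:**
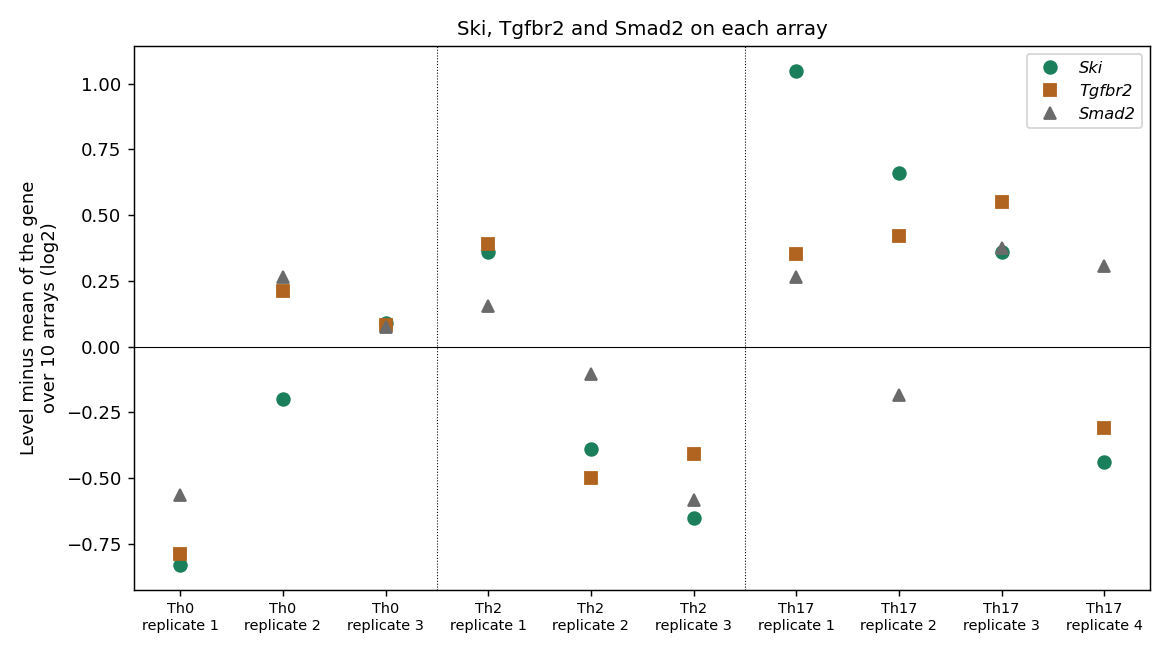
Level of Ski, Tgfbr2 and Smad2 on each array (x axis, dotted lines between groups) after subtracting the mean of that gene over the 10 arrays (y axis, log2). Ski and Tgfbr2 are lowest on the same 4 arrays, which come from all 3 groups.

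Smad2 and Smad3, the Smads that the activated receptor phosphorylates, went separate ways in their group means. Smad2 was at 6.37, 7.20 and 7.01 in Th0, at 7.09, 6.83 and 6.35 in Th2, and at 7.20, 6.75, 7.31 and 7.24 in Th17. The groups overlapped, and Th17 differed from Th0 by 0.27 ± 0.24 (SE, 95% interval -0.26 to 0.80, limma, adjusted p = 0.999). Smad3 was at 5.54, 5.15 and 4.89 in Th0, at 5.58, 5.34 and 5.77 in Th2, and at 5.39, 4.85, 4.69 and 4.62 in Th17. The lowest 3 arrays were Th17 replicates 2 to 4, while Th17 replicate 1 lay inside the Th2 range. Smad3 differed by -0.67 ± 0.22 (SE) between Th17 and Th2 (limma, adjusted p = 0.608) and by -0.30 ± 0.22 between Th17 and Th0 (limma, adjusted p = 0.999). These are transcript levels, and neither phosphorylation nor protein was measured.

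Tgfb1, the ligand that T cells make themselves, varied least of the 10 genes, with a range of 0.64 log2 units. It stood at 8.85, 8.60 and 8.70 on Th0 arrays, 8.52, 8.76 and 8.67 on Th2 arrays, and 8.52, 8.42, 8.21 and 8.67 on Th17 arrays. Th17 replicates 2 and 3 were below every array of the other groups. The difference of -0.26 ± 0.15 (SE, 95% interval -0.59 to 0.06) from Th0 did not pass (limma, adjusted p = 0.999). Platelets also carry much Tgfb1. The mean of 4 platelet markers (Pf4, Ppbp, Itga2b, Gp9) was 4.46 to 6.73 on Th0, 3.74 to 5.35 on Th2 and 3.45 to 5.75 on Th17 arrays, all 4 were lower in Th17 than in Th0 in the mean, none was called in any comparison of groups, and their part in the level of Tgfb1 was not tested.

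**Figure D3:**
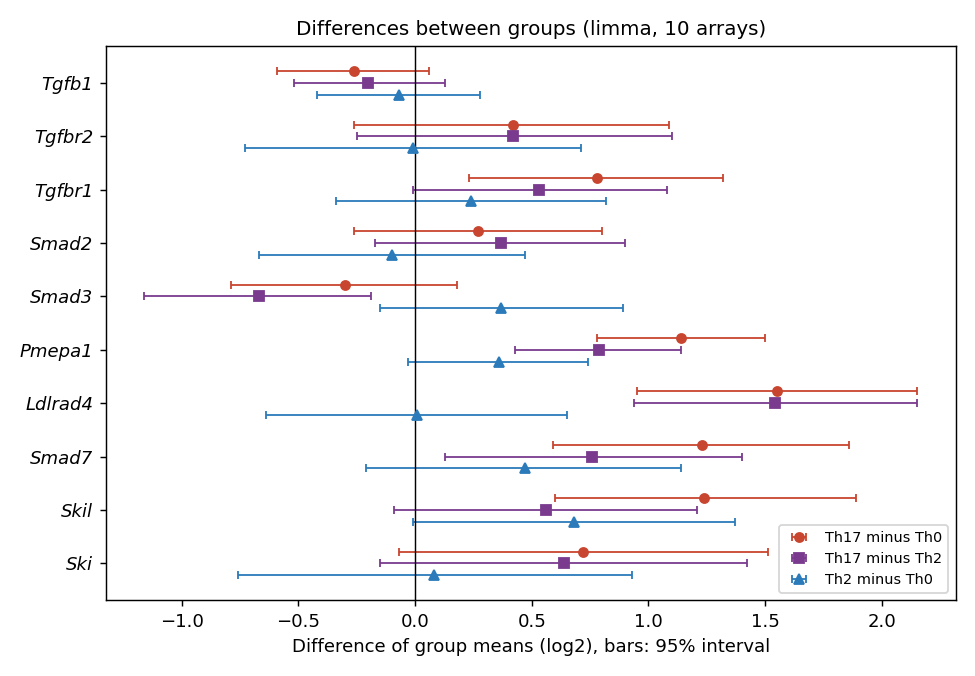
Difference of group means (x axis, log2) for each gene (y axis), with 95% intervals for single genes from the limma fit to all 10 arrays. Pmepa1, Ldlrad4, Smad7, Skil and Tgfbr1 have intervals above 0 in Th17 minus Th0; the intervals are not adjusted for the number of genes, and of these Pmepa1 alone passed the adjusted test.

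Th17 and Th2 cultures shared the antibody against interferon gamma, so their comparison leaves it out, but it adds IL-4, which was in Th2 cultures alone. There 0 of the 10 genes were called by limma, where 0.0766% of all genes were. At an unadjusted p under 0.05, 3 genes (Ldlrad4, Pmepa1, Smad7) were higher and 1 (Smad3) was lower, against 3.18% of all genes higher and 3.07% lower. Those 3 were also the genes with every Th17 array above every Th2 array, a pattern that 2.6% of all genes showed. The comparison of Th2 with Th0 had 0 genes called by limma, among these 10 or over all (0% of all genes), and 0 of the 10 had an unadjusted p under 0.05, which 6.34% of all genes had. Pmepa1 and Tgfbr1 had every Th2 array above every Th0 array (4.48% of all genes), by 0.36 and 0.24 in the mean. The comparisons share arrays, so their values are not independent of each other.

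Th0 and Th2 were also pooled as the 6 arrays without TGF-beta, a comparison added after the values were seen. Against the mean of these groups Pmepa1 rose by 0.96 ± 0.14 (SE, limma, adjusted p = 0.0193) and Ldlrad4 by 1.55 ± 0.23 (limma, adjusted p = 0.0238). These 2 of 10 genes were called, and 0.221% of all genes were. With Smad7 they made up the 3 genes with all Th17 arrays above all other arrays, as 0.73% of all genes had. Leaving out Th2 replicate 2, or any of Th17 replicates 1 to 3, ended the call of Pmepa1 (adjusted p 0.0548 to 0.1). Ldlrad4 kept it only without Th2 replicate 1 or Th17 replicate 4 (0.0185 and 0.0113) and had 0.0524 to 0.106 without any other array. Without the 3 arrays apart on the first component Ldlrad4 differed by 1.60 (adjusted p = 0.0401) and Pmepa1 by 0.95 (0.101). Without the 3 arrays highest in basophil markers the differences were 1.34 (0.557) and 0.95 (0.393).

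The rest of the pathway was covered by 5 lists of 64 genes, 63 of them measured. Among these lists, known target genes of TGF-beta held the largest increases in Th17. The lists too were chosen with earlier results of these data known, so their counts are a description. Nt5e, the ectoenzyme CD73, was at 3.65, 3.96 and 4.24 in Th0, 4.71, 3.44 and 3.70 in Th2, and 5.94, 5.91, 5.63 and 6.28 in Th17. Gpr15, a receptor that guides T cells to the colon, was at 3.72, 4.02 and 3.97 in Th0, 3.48, 3.15 and 3.58 in Th2, and 6.52, 6.84, 6.01 and 5.18 in Th17. All Th17 arrays lay above all other arrays for both genes, as was so for 0.73% of all genes. Nt5e rose by 1.99 ± 0.28 (SE, limma, adjusted p = 0.0381) and Gpr15 by 2.24 ± 0.32 (limma, adjusted p = 0.0381) against Th0, and these were the 2 of 19 measured target genes called there (0.104% of all genes). Against Th2, where 0.0766% of all genes were called, 3 of the 19 were, Gpr15 (2.73 ± 0.32, adjusted p = 0.0151), Nt5e (1.99 ± 0.28, adjusted p = 0.0391) and Itgae (2.37 ± 0.36, adjusted p = 0.0485).

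Itgae encodes the integrin chain CD103 that binds E-cadherin. It was at 4.41, 3.88 and 3.63 in Th0 and 5.37, 6.71, 6.69 and 5.42 in Th17, with the higher pair on the Th17 arrays high in basophil and mast cell markers. The part of those cells in the difference was not tested. Against Th0 it differed by 2.08 ± 0.36 (limma, adjusted p = 0.0804). Several of these calls were near the threshold and were lost when single arrays were left out. Nt5e stayed called only without Th2 replicate 1 in either comparison (adjusted p up to 0.196 without another), and Itgae only without Th2 replicate 1 or Th17 replicate 4 against Th2 (up to 0.236). Gpr15 stayed called without Th2 replicate 1 or Th17 replicate 4 against Th0 (up to 0.196), and lost the call against Th2 without Th2 replicates 2 or 3 or Th17 replicate 1 (0.0512 to 0.139). The differences ran from 1.84 to 2.13 for Nt5e and from 2.00 to 2.56 for Gpr15 against Th0 when single arrays were left out. Fitted on the arrays of the compared groups only, Gpr15 missed the threshold against Th0 (limma, adjusted p = 0.0599) and Th2 (0.0645), as did Nt5e (0.105) and Itgae (0.117) against Th2, while Nt5e stayed called against Th0 (0.0111). Without the 3 arrays apart on the first component, Nt5e was 1.12 above Th2 (limma, adjusted p = 0.365) and Itgae 2.31 (0.328), while Nt5e and Gpr15 stayed called against Th0. Without the 3 arrays highest in basophil markers none of these calls held, with Nt5e at 2.01 (0.704) and Gpr15 at 1.85 (0.897) against Th0, and Nt5e at 2.16 (0.445), Gpr15 at 2.44 (0.315) and Itgae at 1.71 (0.114) against Th2.

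Not all target genes went this way: over the list the median difference from Th0 was 0.07, with 10 genes above 0 and 9 below. At an unadjusted p under 0.05, 5 of the 19 were higher (Gpr15, Itgae, Nt5e, Spsb1, Tgfbi), against 2.5% of all genes. By the same rule 3 were lower (Ccr8, Id2, Cdkn1a), against 2.67% of all genes. Id2 differed by -0.77 ± 0.29 (limma, adjusted p = 0.879) and Cdkn1a by -0.41 ± 0.18 (limma, adjusted p = 0.931). The list was not split by the direction in which TGF-beta is known to move each gene. Some of its genes were dim on these arrays, and the part of signal level in their differences was not tested. Id1, Ccn2 and Lmcd1 had group means of 3.39 to 3.73, beside array medians of 3.39 to 3.61. Nt5e, Gpr15 and Itgae were little brighter in Th0, at means of 3.95, 3.90 and 3.97. Id2 and Cdkn1a were bright, at means of 8.92 and 9.34 in Th0 and 8.14 and 8.93 in Th17. Ccr8, a chemokine receptor, was at 6.40, 7.91 and 7.90 in Th0 and 6.57, 3.97, 6.02 and 4.94 in Th17 (-2.03 ± 0.64, limma, adjusted p = 0.711). Foxp3, the factor that defines regulatory T cells, stands in this list and among the 4 regulatory T cell markers, whose mean was 7.20 to 7.85 on Th0, 6.22 to 7.66 on Th2 and 6.51 to 7.32 on Th17 arrays. Foxp3 differed by -0.83 ± 0.38 (SE) between Th17 and Th0 (limma, adjusted p = 0.971). All 4 markers were lower in Th17 than in Th0 in the mean, from -1.22 for Lrrc32 to -0.04 for Il2ra, and 0 were called. Against Th2, 2 were higher and 2 lower.

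**Figure D4:**
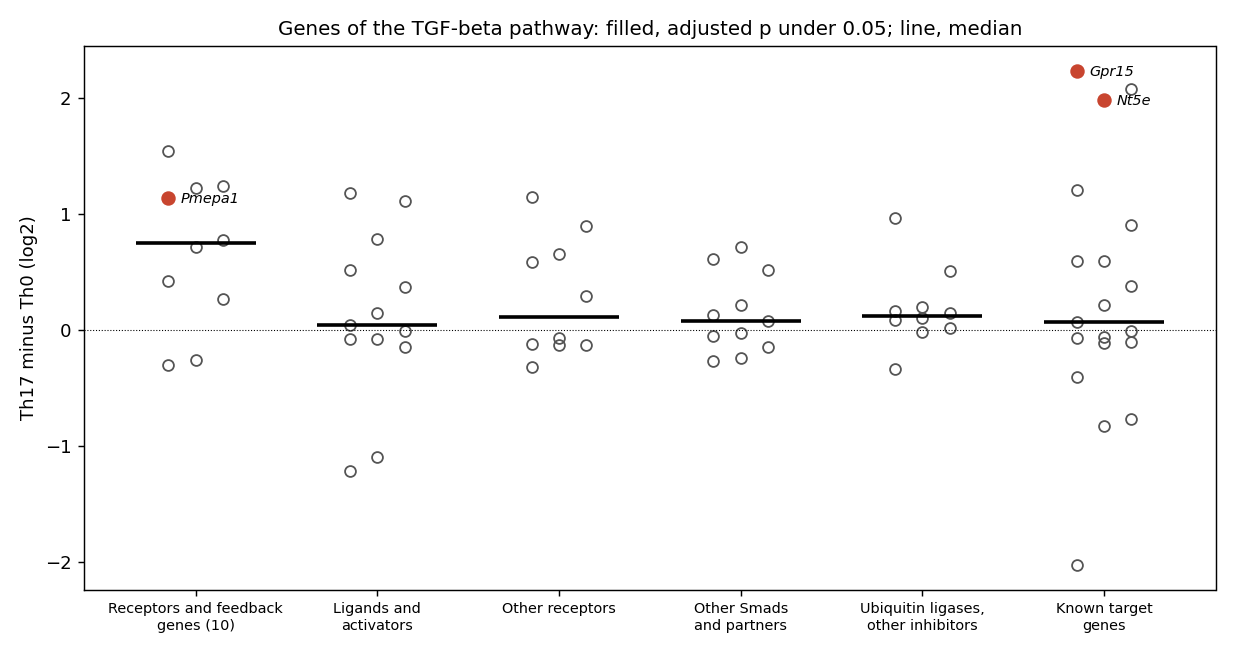
Difference of Th17 from Th0 (y axis, log2) for the 10 genes and for 5 further lists of the pathway (x axis). The list that holds the ubiquitin ligases is not limited to inhibitors. Each circle is a gene, filled where its adjusted p was under 0.05 (limma), and each line is the median of a list; Pmepa1, Nt5e and Gpr15 are the filled circles, and the medians of the 5 further lists lie between 0.04 and 0.13.

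Ligands and activators (13 genes) had 0 called in Th17 against Th0 by limma, where 0.104% of all genes were. At an unadjusted p under 0.05, 2 were lower, as were 2.67% of all genes. These were Nrros and Lrrc32, which tether latent TGF-beta to the surface of myeloid cells and regulatory T cells. Nrros was at 5.85, 6.52 and 5.81 in Th0 and below that, at 4.67, 5.45, 5.07 and 4.67, on every Th17 array (-1.10 ± 0.32, limma, adjusted p = 0.612). Over all 22180 genes, 964 had every Th17 array below every Th0 array. Lrrc32, also counted among the regulatory T cell markers, was at 6.10, 5.46 and 6.37 in Th0, at 6.33, 4.20 and 3.77 in Th2, and at 5.64, 4.74, 4.49 and 4.17 in Th17. The range of its values within Th2 was wider than the difference of -1.22 ± 0.55 between Th17 and Th0 (limma, adjusted p = 0.962).

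Other receptors of the superfamily (10 genes) had 0 called in that comparison (0.104% of all genes) and 2 higher at an unadjusted p under 0.05 (2.5% of all genes). The type II receptors Acvr2a, which binds activins, and Bmpr2, which binds bone morphogenetic proteins, differed by 0.90 ± 0.27 (limma, adjusted p = 0.636) and 1.15 ± 0.35 (limma, adjusted p = 0.656). Acvr2a was at 5.37, 4.59, 5.10 and 4.18 on Th17 arrays and between 3.66 and 4.16 on the other 6. Bmpr2 was at 5.97, 5.86, 5.89 and 7.27 on Th17 arrays and between 4.66 and 5.54 on the others. For both genes the Th17 arrays were the highest 4, as was so for 0.73% of all genes. For Acvr2a the margin was narrow, with 4.18 on Th17 replicate 4 against 4.16 on the highest of the others.

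The list of ubiquitin ligases and other regulators (10 genes) was not limited to inhibitors, and also held Usp15, Usp4 and Rnf111. It had 0 called and 1 higher at an unadjusted p under 0.05, beside the same 0.104% and 2.5% of all genes. This was Wwp1, a ubiquitin ligase that works with Smad7 on the receptor. It was at 6.91, 6.32, 7.02 and 6.43 on Th17 arrays, above the 5.67, 5.86 and 5.58 of Th0 and the 5.93, 5.28 and 5.27 of Th2. Such a separation from both groups was seen in 0.73% of all genes. The difference of Wwp1 was 0.97 ± 0.22 (limma, adjusted p = 0.324) from Th0 and 1.18 ± 0.22 (limma, adjusted p = 0.134) from Th2. Other Smads and their partners (11 genes) had 0 called (0.104% of all genes), and 1 was higher at an unadjusted p under 0.05 (2.5% of all genes), the phosphatase Ppm1a, by 0.61 ± 0.23 (limma, adjusted p = 0.888).

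Over all genes, the pattern most like that of Pmepa1 was sought by the root mean square difference of centred log2 values on the 10 arrays. The nearest were Foxo1, a transcription factor of resting lymphocytes, at 0.20 log2 units, Tnfrsf25, a receptor of the TNF family, at 0.22, and Zdhhc2, a palmitoyltransferase, at 0.23. A gene with a flat profile would lie at 0.52. For Ldlrad4 the nearest were Acpp, an acid phosphatase, at 0.26, Arhgap27os3 at 0.32 and Chad, a cartilage matrix protein, at 0.35, with a flat profile at 0.83. Acpp was at 4.45, 4.43 and 4.64 in Th0, 4.60, 4.34 and 4.26 in Th2 and 6.58, 6.45, 6.22 and 5.73 in Th17. Like Ldlrad4, it had its lowest Th17 value on replicate 4.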

How the data were processed

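RNA of 10 cultures was hybridised to 1 array each. The deposited values are on a log2 scale; the submitters' processing notes name RMA (background correction, normalization between arrays and a summary per probe set) and Affymetrix Expression Console 1.3.0.187. RMA compresses differences of dim probe sets and hides changes in total RNA. Genome build: not given in the sources used here. Of 41345 probe sets, 23521 had 1 gene symbol, 1814 several and 16010 none in the probe table. The probe set with the highest mean stood for each of 22180 genes, with no filter on low values. limma 3.58.1 (R 4.3.3) fitted 3 group means to all 10 arrays (lmFit, eBayes, 7 residual degrees of freedom). P-values were two-sided and Benjamini-Hochberg adjusted over all genes, and called under 0.05. The procedure was tested on simulated data. Groups and replicate numbers come from the sample titles (the description of Th2 replicate 3 carries the number 4). The titles call the samples biological replicates. Whether each came from its own animal they do not say, so p-values cover the spread among these samples, and the number of arrays limits the precision. No 2 arrays held identical values.

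The 10 genes were named whatever the test gave. Of each pathway list, the called genes and up to 4 with the smallest p in Th17 against Th0 could be named, of which some are not printed. Foxp3, Id1, Id2, Cdkn1a, Ccn2, Lmcd1, Spsb1 and Tgfbi of the target list were named outside this rule. The nearest 3 patterns were named for Pmepa1 and for the gene with the widest range, leaving out unnamed gene models. Members and lists were chosen with earlier results of these data known. Alternatives covered a further quantile normalization, a filter on means under 5, the mean of a gene's probe sets, each array left out, replicate blocks, the arrays of the groups compared alone, trended robust variances, array weights and 2 sets of 3 arrays left out.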

Additional observations from a re-analysis of the deposited data

How the results depend on the processing

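Of 1296 differences of 30 genes recomputed over 20 alternatives, 1166 kept their direction and side of the threshold, 91 lost and 14 gained a call, and 25 turned. Most were uncalled at first: the 8 differences that were called had 153 of these values, of which 62 kept the call and 91 lost it. Of the 10 genes, 1 (Pmepa1) was called in Th17 against Th0. The count was 2 with array weights, and 0 with either replicate block, with the arrays of the 2 groups only, with trended robust variances, or without the 3 arrays highest in basophil markers. It was 1 with a further quantile normalization or without the 3 arrays apart, but the gene was then Ldlrad4. It was 0 to 1 with single arrays left out. Against Th2 it was 1 after quantile normalization and 2 with array weights, against 0, and 0 to 1 with single arrays left out. Against Th0 and Th2 together the 2 genes became 1 with either block, with trended variances or without the arrays apart, 0 without the basophil-high arrays, and 0 to 2 with single arrays left out. The cause was not tested. Fits without either set of 3 arrays had 4 residual degrees of freedom, and those with trended robust variances or array weights had 7.

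Same-numbered arrays did not deviate from their group means together (correlations -0.309 to 0.296 over title numbers), so the numbers were not taken to pair them. By the descriptions Th2 replicate 3 and Th17 replicate 4 share a number, with 0.494. With the block of title numbers Pmepa1 differed by 1.15 (limma, adjusted p = 0.163). With the blocks of title and description numbers, adjusted p was 0.177 and 0.146 for Nt5e against Th0, 0.144 and 0.142 against Th2, and 0.101 and 0.142 for Itgae against Th2. For Gpr15 it was 0.0294 and 0.0973 against Th0 and 0.0114 and 0.0887 against Th2.

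Over all genes, 23 were called in Th17 against Th0, and 8 and 5 with the blocks of title and description numbers, 60 with array weights, 46 without the arrays apart, 3 without the basophil-high arrays and 2 to 36 with single arrays left out. Against Th2, 17 became 30 after quantile normalization, 10 with the filter, 11 and 5 with the blocks, 330 with weights, 6 without the basophil-high arrays and 3 to 298 with single arrays left out. Th2 against Th0 had 0, then 2 without the arrays apart and 0 to 431 with single arrays left out (431 without Th2 replicate 1). Against both groups together 49 became 22 and 32 with the blocks, 121 with weights, 6 without the basophil-high arrays and 15 to 75 with single arrays left out.

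Differences that turned were uncalled. Tgfbr2 (-0.13) and Smurf1 (-0.08) in Th17 against Th0 turned without the basophil-high arrays, and Smad2 against Th2 (-0.01) without the arrays apart. In Th2 against Th0, without the arrays apart Smad2 was at 0.23, Skil at -0.04 and Tgfbr2 at 0.56. There Smad2 was at 0.03 and Tgfbr2 at 0.26 with the block of description numbers, and Tgfbr2 at 0.10 after quantile normalization. With weights Ski was at -0.15, Ldlrad4 at -0.14 and Tgfb1 at 0.01, and without the basophil-high arrays Ski was at -0.17 and Ldlrad4 at -0.03. With single arrays left out, Smad2 ran from -0.34 to 0.10, Ski from -0.21 to 0.29, Ldlrad4 from -0.15 to 0.15 and Tgfbr2 from -0.32 to 0.18.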

Other observations

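Within the Th2 group, Skil was not alone in differing between arrays, as seen after the values were known. Tgif1, a corepressor of Smad2, was at 4.65 on Th2 replicate 1 and at 6.82 and 6.34 on replicates 2 and 3, above all 3 Th0 arrays (4.48 to 5.27) and all 4 Th17 arrays (5.03 to 5.96). Furin, a protease that processes the TGF-beta precursor, was at 6.61 on Th2 replicate 1 and at 8.92 and 8.72 on replicates 2 and 3, where the Th17 arrays lay between 7.65 and 8.45. Lrrc32 ran the other way, at 6.33 on replicate 1 and 4.20 and 3.77 on replicates 2 and 3. Th2 replicates 2 and 3 are among the arrays apart on the first component, and no difference between arrays of 1 group was tested.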
